A study of Mus musculus with 4 samples.

Results

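Imprinted genes were followed in RNA-seq of E14 cells, a mouse embryonic stem cell (mESC) line, with and without Npac, the H3K36me3-binding protein also called Glyr1. A set of 51 imprinted genes was chosen by symbol, and 50 of them were listed among the 56748 genes of the count table. They came from 21 imprinted clusters or single loci on 11 chromosomes, 20 of them on chromosome 7. The 4 libraries were 2 from WT E14 cells (WT1 and WT2) and 1 from each of 2 Npac KO lines made from E14 cells with CRISPR/Cas9 (KO1 and KO2). All cells were grown without feeders in serum with LIF. A KO line that started from a picked colony is a single clone, and the labels do not say whether WT1 and WT2 were separate cultures, so p-values measure the spread between these libraries, which may be partly technical. In total RNA of this kind, fewer expressing cells and less RNA per cell cannot be told apart, and no read was assigned to a parental allele.

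An imprinted gene is expressed mainly from the allele inherited from the mother or mainly from the allele inherited from the father. The choice is set by germline differentially methylated regions (germline DMRs), stretches of CpG-rich DNA that are methylated in oocytes or in sperm and keep that methylation after fertilization, when most of the genome loses it. The zinc finger proteins ZFP57 and ZFP445, the co-repressor TRIM28 and the maintenance methyltransferase DNMT1 keep these marks, and imprinted genes of mESCs are known to vary between lines and with culture. Many imprinted genes act on fetal growth, with paternally expressed genes such as Igf2 promoting it and maternally expressed genes such as Igf2r, Cdkn1c and Grb10 restraining it. In what follows, paternal and maternal mean the allele a gene is known to be expressed from in mouse, as textbook annotation.

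The libraries held between 15850805 and 16965120 reads on genes. Glyr1, the targeted gene, had 219 ± 57.3 CPM (TMM-normalized counts per 1000000 reads, mean ± SD, n = 2) in WT cells and 49.6 ± 2.43 CPM (n = 2) in Npac KO cells (log2 fold change -2.14, adjusted p = 0.00174, edgeR). Of 8 ES cell markers, 7 did not pass the test and 1, Zfp42, was down-regulated. Pou5f1 stood at -0.42 on the log2 scale (adjusted p = 0.157). Zfp42, Pou5f1, Sox2 and Esrrb were lower in both KO libraries, Dppa4, Utf1 and Lin28a were higher, and Nanog overlapped. Over all genes tested, the groups did not overlap in 65.7%. The summed level of the ES cell list was 5035 and 3759 CPM in WT and 3116 and 2812 CPM in KO libraries. Of 11 trophoblast markers, 7 were tested and 2, Tfap2c and Krt18, were up-regulated. The summed level of that list was 106 and 117 CPM in the WT libraries and 272 and 244 CPM in the KO libraries, while its placental genes Prl3d1 and Tpbpa had 0 reads in every library. Most of the sum was Tfap2c (mean 41.2 CPM in WT, 145 CPM in KO libraries), Krt8 (32.8 and 47.2) and Krt18 (22.7 and 47.2). Eomes (9.38 and 8.41) and Krt7 overlapped between the groups, and Gata3 and Hand1 were higher in both KO libraries without a call. Cdx2 had 0 and 3 reads in WT and 0 and 16 reads in KO libraries. Of 10 extraembryonic endoderm markers, 7 were tested and 1, Sox7, was down-regulated, with a summed level of 123 and 148 CPM in WT and 106 and 122 CPM in KO libraries. Of 8 fibroblast markers, 4 were tested and 1, Col1a1, was up-regulated, Col3a1 and Dcn being at 0 reads in every library. Fbln1 (mean 39.3 CPM in WT, 64.9 CPM in KO libraries) and Thy1 (39.5 and 28.2) went opposite ways and were not called. In the same test 21.7% of all genes were up- or down-regulated, so a few called markers in a list are near that share. The part of these other cell types in the results that follow was not tested.

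Of the 50 imprinted genes listed, 47 passed the filter on low counts. By edgeR's quasi-likelihood test, at a Benjamini-Hochberg adjusted p under 0.05 over 18157 genes and a fold change over 1.5, 16 of the 47 changed (34%). In the same comparison 21.7% of all genes tested were called, 11% up-regulated and 10.7% down-regulated. Of the imprinted genes 4 rose (8.51%) and 12 fell (25.5%), and the median log2 fold change was -0.29, beside 0.0015 over all genes. KO1 and KO2 lay below WT1 and WT2 in 21 of the 47 genes and above them in 15, so the groups did not overlap in 76.6% of the imprinted genes and in 65.7% of all genes. All 16 called genes kept their direction under every alternative setting and without any single library. As KO1 and KO2 lay on the same side of both WT libraries in all 16, that outcome was largely fixed in advance. The calls themselves leaned on all 4 libraries: only H19, Meg3, Mirg, Rtl1 and Grb10 were still called without each library in turn.

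**Figure D1:**
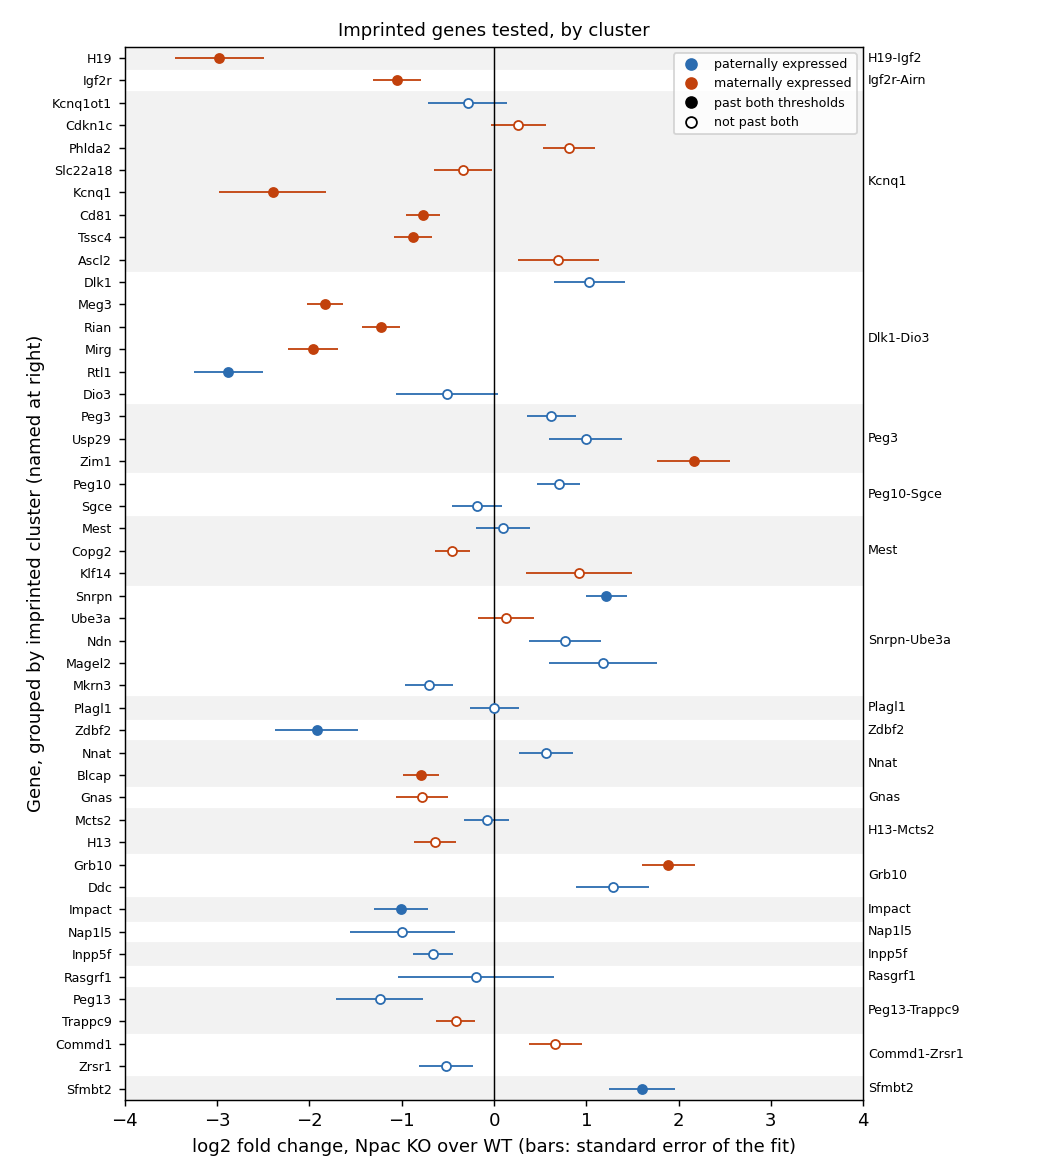
Log2 fold change of Npac KO over WT (horizontal axis) for the 47 imprinted genes tested, grouped by cluster, with the standard error of the fit as bars. Blue marks paternally and orange maternally expressed genes, and filled points are the 16 genes past both thresholds, 12 of them on the left of 0 and 4 on the right.

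Split by the allele expressed, the down-regulated genes were mostly maternal. Of 22 maternally expressed genes, 9 were down-regulated (40.9%) and 2 up-regulated (9.09%), with a median log2 fold change of -0.55. Among the 9, Kcnq1, Cd81, Tssc4 and Blcap are annotated as imprinted only in some tissues. Of all 16 tested genes annotated so, 4 fell (25%), and of the 31 annotated as broadly imprinted 8 fell (25.8%). Whether a gene was imprinted in these cells was not measured. Of 25 paternally expressed genes tested, 3 were down-regulated (12%) and 2 up-regulated (8%), with a median of -0.08. Among these 3 is Rtl1, whose reads cannot be told apart from those of a maternal antisense transcript. The median of the paternal genes was 0.16 without KO1 and 0.01 without WT2, on the other side of 0. The maternal group holds 3 noncoding RNAs of a single cluster, Meg3, Rian and Mirg, so its members are not independent of each other. Among all 1806 lncRNA genes tested, 12.2% were down-regulated and 9.14% up-regulated. Of the 14 tested genes whose own promoter is annotated as lying in a germline DMR, 1 rose and 1 fell, with a median of -0.04. Of the other 33, 3 rose and 11 fell (33.3%), with a median of -0.45. Zdbf2, which also has an upstream start, was counted with these 33 for all its starts. Whether the groups differ from each other was not tested.

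**Figure D2:**
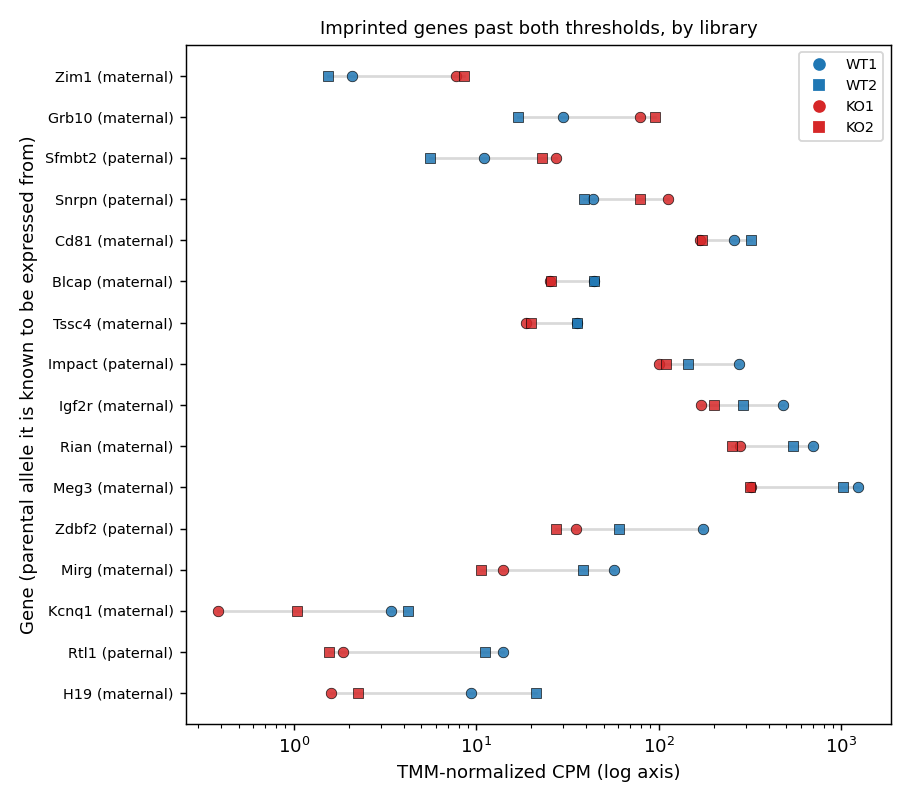
TMM-normalized CPM (log axis) of the 16 imprinted genes past both thresholds, with a point for each library (WT blue, Npac KO red, circles for number 1 and squares for number 2). Genes are ordered by log2 fold change. The blue and the red points do not overlap in any row, as is likely for genes picked by the test. The groups did not overlap in 65.7% of all genes tested.

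The largest group of down-regulated genes lay in the Dlk1-Dio3 cluster on chromosome 12. In this cluster the maternal chromosome produces the long noncoding RNAs Meg3, Rian and Mirg, which host snoRNAs and microRNAs, and the paternal chromosome the protein-coding genes Dlk1, Rtl1 and Dio3. Meg3 (ENSMUSG00000021268, 109506879 to 109538165 in the deposited table, which names no build) had 18985 and 17935 reads in WT1 and WT2 and 4979 and 5491 reads in KO1 and KO2. Its level fell from 1135 ± 153 to 319 ± 2.17 CPM (log2 fold change -1.83, SE 0.20, adjusted p = 0.00177). Rian had 10654 and 9460 reads in WT and 4335 and 4360 reads in KO libraries, and it fell with a log2 fold change of -1.22 (SE 0.20, adjusted p = 0.00777). Mirg had 870 and 675 reads in WT and 217 and 184 reads in KO libraries, and it fell with a log2 fold change of -1.96 (SE 0.27, adjusted p = 0.0044). The KO libraries were far below the WT libraries in all 3 genes, and each KO line showed it alone. Without KO2, Rian kept its direction but not its call (log2 fold change -1.15, adjusted p = 0.0646). Meg3, Rian and Mirg together held 46.0% and 46.1% of all reads on the imprinted genes in WT1 and WT2, and 25.3% and 25.5% in KO1 and KO2.

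The paternally expressed genes of the cluster did not move together. Rtl1 (ENSMUSG00000085925, 109555627 to 109566764), a retrotransposon-derived gene needed in the placenta, had 214 and 196 reads in WT libraries and 29 and 27 reads in KO libraries. It fell from 12.6 ± 1.98 to 1.71 ± 0.216 CPM (log2 fold change -2.88, SE 0.37, adjusted p = 0.00331). Dlk1, a Delta-like membrane protein that acts on growth and differentiation, had 61 and 114 reads in WT and 136 and 222 reads in KO libraries. Dlk1 was higher in KO1 and KO2 than in either WT library, but the log2 fold change of 1.03 (SE 0.39) did not pass the test (adjusted p = 0.0927), and without WT2 it did (1.43, adjusted p = 0.00477). Dio3, the deiodinase that inactivates thyroid hormone, had 60 and 237 reads in WT and 82 and 122 reads in KO libraries, so the groups overlapped. Begain, a neighbour of Dlk1 named here after its values were seen, fell with a log2 fold change of -0.92 (315 and 375 reads in WT, 183 and 182 in KO libraries, adjusted p = 0.0363).

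**Figure D3:**
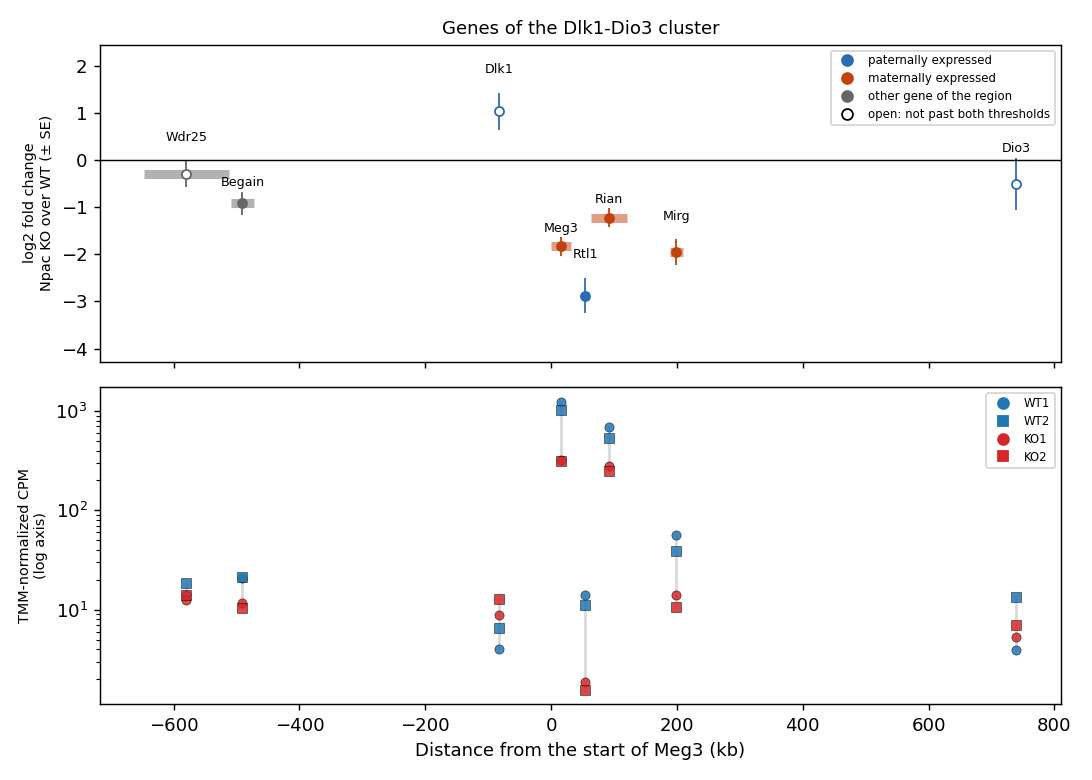
Genes of the Dlk1-Dio3 cluster by distance from the start of Meg3 in kb. The upper panel gives the log2 fold change with its standard error (horizontal bars span the gene) and the lower panel the CPM of each library on a log axis. Meg3, Rtl1, Rian and Mirg lie next to each other and below 0, while Dlk1 and Dio3 at the sides are open points.

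Rtl1 cannot be read on its own. Its exon lies on the strand opposite to Meg3, Rian and Mirg, and a maternal antisense transcript with microRNAs runs through it. The strand setting of the counting is not given in the sources used here, so reads of Rtl1 and of that antisense transcript cannot be told apart. In the GENCODE annotation of GRCm38, 8.12% of the exon bases of Rtl1 are shared with genes of the other strand. From Meg3 to Mirg the deposited table lists 98 genes, of which 35 had reads and 7 were tested. All reads in that interval were 30830 and 28364 in WT libraries and 9597 and 10109 in KO libraries, and the 94 genes outside the 4 called held only 107, 98, 37 and 47 of them. The 66 microRNA genes annotated there had 56 and 35 reads in WT and 18 and 12 reads in KO libraries. These libraries were not made from small RNA, and such reads are too few for a comparison of mature microRNAs.

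The microRNAs encoded within the span of Rtl1 are shown because reads of their host transcript and of Rtl1 cannot be told apart here. RefSeq lists 7 hairpins and 13 mature microRNAs there (GRCm38.p6, chr12:109589193-109600330), 11 of them on the plus strand, antisense to Rtl1. Each of the 13 has a seed of its own. The mature sequences of 6 plus-strand microRNAs follow, 5′ to 3′, with the seed (bases 2 to 8) in capitals.
mmu-miR-431-5p: uGUCUUGCaggccgucaugca
mmu-miR-433-3p: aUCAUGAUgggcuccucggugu
mmu-miR-127-3p: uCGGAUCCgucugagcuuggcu
mmu-miR-434-3p: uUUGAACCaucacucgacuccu
mmu-miR-432: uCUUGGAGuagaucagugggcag
mmu-miR-136-5p: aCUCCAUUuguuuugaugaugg

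H19 and Igf2, the classic pair of oppositely imprinted neighbours on chromosome 7, stood apart in opposite directions, though Igf2 had too few reads for a test. H19 (ENSMUSG00000000031, 142129262 to 142131886), a maternally expressed noncoding RNA and microRNA host, had 143 and 370 reads in WT1 and WT2 and 25 and 39 reads in KO1 and KO2. It fell from 15.3 ± 8.35 to 1.93 ± 0.456 CPM (log2 fold change -2.98, SE 0.48, adjusted p = 0.00714). The groups did not overlap, and with any single library left out the value lay between -3.47 (without WT1) and -2.27 (without WT2). Igf2, the paternally expressed fetal growth factor, had 0 and 1 reads in WT libraries and 19 and 10 reads in KO libraries, under the filter on low counts. Its KO mean was 4.89-fold the level that 3 reads in each WT library would give. As a lower bound on the ratio of KO to WT, this allows for counting error in the WT libraries only and carries no test. Of the exon bases of Igf2 in GENCODE, 62.8% are shared on the same strand with the gene model Gm49394, so these few reads are uncertain.

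Igf2r and Airn form a similar pair on chromosome 17. Igf2r (ENSMUSG00000023830), the maternally expressed receptor that carries IGF2 to the lysosome, had 7294 and 5060 reads in WT and 2647 and 3474 reads in KO libraries. It fell from 384 ± 133 to 186 ± 21.5 CPM (log2 fold change -1.05, SE 0.26, adjusted p = 0.0277). The call was lost without KO1 (-0.95, adjusted p = 0.148) and without KO2 (-1.17, adjusted p = 0.0885). Airn, the paternally expressed antisense RNA that silences Igf2r in cis in differentiated cells, had 0 and 2 reads in WT and 3 and 13 reads in KO libraries. It had 3 reads or fewer in every library except KO2, and no fold change is given.

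In the Kcnq1 cluster on chromosome 7, the down-regulated genes were adjacent. The paternal noncoding RNA Kcnq1ot1 starts within Kcnq1 and is known to silence its neighbours on the paternal chromosome. Kcnq1 (ENSMUSG00000009545), a potassium channel, had 52 and 74 reads in WT and 6 and 18 reads in KO libraries, with a log2 fold change of -2.40 (SE 0.58, adjusted p = 0.025). Cd81, a tetraspanin, had 3972 and 5587 reads in WT and 2604 and 2994 reads in KO libraries, with a log2 fold change of -0.77 (SE 0.19, adjusted p = 0.0264). Tssc4, an assembly factor of the U5 snRNP, had 545 and 621 reads in WT and 293 and 344 reads in KO libraries, with a log2 fold change of -0.88 (SE 0.20, adjusted p = 0.0222). In these 3 genes the KO libraries lay below the WT libraries without overlap, as they did in 32.5% of all genes tested. Their neighbours Tspan32 (88 and 94 reads in WT, 12 and 15 in KO libraries, log2 fold change -2.75, adjusted p = 0.00717) and Trpm5 (28 and 51 reads in WT, 9 and 12 in KO libraries, log2 fold change -1.89, adjusted p = 0.0443) fell as well. Trpm5 overlaps Tssc4 on the other strand, 11.9% of the exon bases of Tssc4 being shared, so part of their reads cannot be told apart.

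Each of the 3 calls depended on both KO lines. Without KO1 the log2 fold change was -1.89 for Kcnq1 (adjusted p = 0.201), -0.76 for Cd81 (adjusted p = 0.208) and -0.86 for Tssc4 (adjusted p = 0.222). Without KO2 it was -3.28 for Kcnq1 (adjusted p = 0.0514), -0.79 for Cd81 (adjusted p = 0.189) and -0.92 for Tssc4 (adjusted p = 0.180). The remaining genes of the cluster did not pass the test. Kcnq1ot1 itself had 156 and 198 reads in WT and 81 and 215 reads in KO libraries, so KO1 and KO2 lay on either side of the WT libraries. Cdkn1c, an inhibitor of cyclin-dependent kinases, had 229 and 460 reads in WT and 369 and 449 in KO libraries, with 30.7% of its exon bases shared with a gene model of the other strand. Phlda2, which restrains placental growth, had 563 and 395 reads in WT and 928 and 774 in KO libraries (log2 fold change 0.81, adjusted p = 0.0736) without overlap between the groups. Slc22a18, a transporter, and Ascl2, a trophoblast transcription factor, overlapped between the groups, with log2 fold changes of -0.34 and 0.70.

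**Figure D4:**
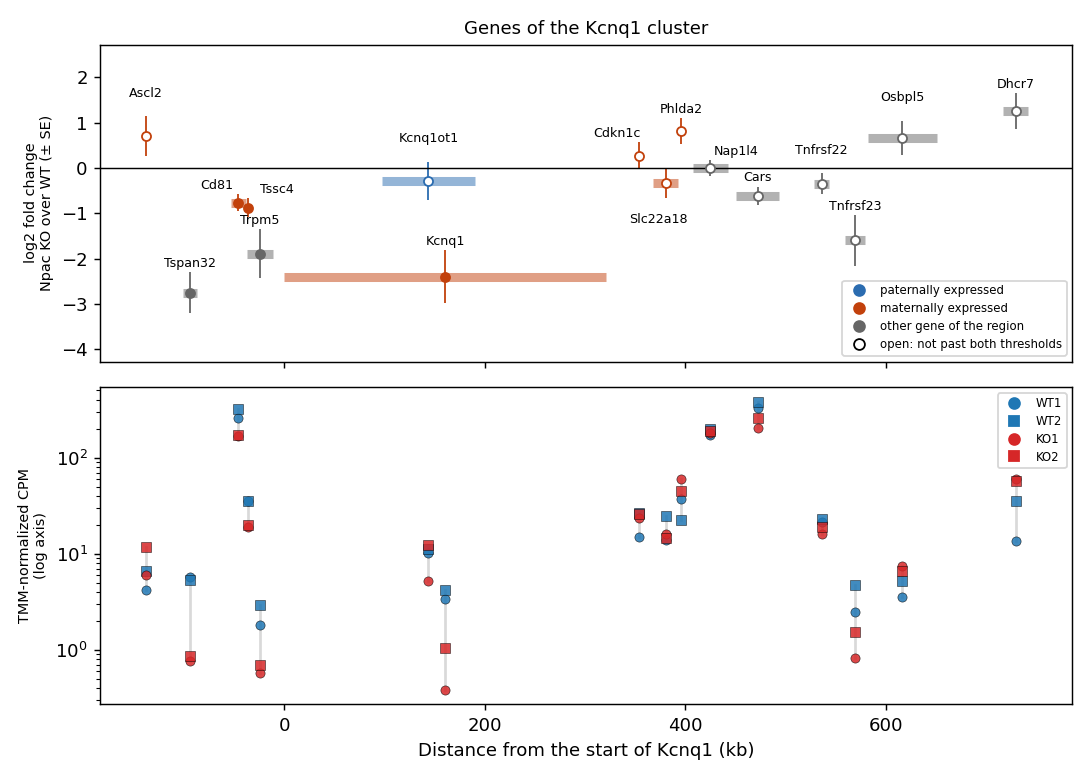
Genes of the Kcnq1 cluster by distance from the start of Kcnq1 in kb, drawn as for the Dlk1-Dio3 cluster (upper panel, log2 fold change with standard error; lower panel, CPM of each library on a log axis). Filled points past both thresholds run from Tspan32 to Kcnq1 and all lie below 0; the genes from Cdkn1c onward are open points.

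The 4 up-regulated genes came from 4 different loci. Zim1 (ENSMUSG00000002266, chromosome 7, 6674268 to 6699449), the maternally expressed zinc finger gene beside Peg3, had 32 and 27 reads in WT and 120 and 149 reads in KO libraries. It rose from 1.82 ± 0.389 to 8.16 ± 0.628 CPM (log2 fold change 2.16, SE 0.40, adjusted p = 0.0103). Its paternal neighbours Peg3 (1560 and 1020 reads in WT, 2001 and 2045 in KO libraries) and Usp29 (38 and 43 in WT, 78 and 84 in KO libraries) had log2 fold changes of 0.62 (adjusted p = 0.132) and 0.99 (adjusted p = 0.108). In all 3 genes of this cluster the KO libraries lay above the WT libraries, as they did in 33.2% of all genes tested, and only Zim1 was called. Without KO1 or KO2, Zim1 had log2 fold changes of 2.23 and 2.08 and adjusted p of 0.058 and 0.0745.

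Snrpn (ENSMUSG00000102252, chromosome 7, 59632243 to 59789967), the paternally expressed gene of the SmN splicing protein in the cluster of Prader-Willi and Angelman syndromes, had 670 and 679 reads in WT and 1752 and 1375 reads in KO libraries. It rose from 41.4 ± 3.54 to 96.1 ± 23.5 CPM (log2 fold change 1.22, SE 0.22, adjusted p = 0.0105), and without KO1 the value was 0.93 (adjusted p = 0.113). Snurf, the upstream reading frame of the same transcript, was listed at 0 reads in every library, and 27.3% of the exon bases of Snrpn are shared with Snurf and Gm38393. Summed over Snrpn, Snurf and Gm38393, a sum chosen after the values were seen, the reads were 1525 and 770 in WT and 3143 and 2119 in KO libraries, a ratio of 2.26 between the mean CPM values. The other genes of the cluster were not called. Ube3a, the maternally expressed ubiquitin ligase, had 1294 and 738 reads in WT and 1072 and 1208 in KO libraries, with 27.3% of its exon bases shared with genes of the other strand. Ndn and Magel2, of the MAGE family, had log2 fold changes of 0.77 (adjusted p = 0.193) and 1.18 (adjusted p = 0.184), Magel2 on only 8 to 36 reads. Mkrn3, a RING finger gene known for its part in the timing of puberty, had 266 and 331 reads in WT and 157 and 212 in KO libraries (log2 fold change -0.70, adjusted p = 0.0921). Atp10a, which lies beside this cluster and was read from the list of cluster neighbours, rose from 33 and 49 reads to 426 and 374 reads (log2 fold change 3.30, adjusted p = 0.00117).

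Grb10 (ENSMUSG00000020176, chromosome 11, 11880508 to 11988683), an adaptor that restrains insulin and IGF signalling and is maternally expressed outside the brain, had 458 and 297 reads in WT and 1224 and 1648 reads in KO libraries. It rose from 23.5 ± 9.19 to 87.0 ± 11.6 CPM (log2 fold change 1.89, SE 0.29, adjusted p = 0.00566). Ddc, the dopa decarboxylase gene beside it, had 249 and 146 reads in WT and 598 and 373 reads in KO libraries, a log2 fold change of 1.29 (SE 0.39) that missed the threshold (adjusted p = 0.0534). Ddc was called in 4 of the 8 alternative settings with every library, among them DESeq2 (adjusted p = 0.00893). Chromosome 11 as a whole was higher in the KO libraries, with a median log2 difference of 0.51 in KO1 and 0.48 in KO2, and Grb10, Ddc, Commd1 and Zrsr1 are the imprinted genes it carries. With the median of each chromosome removed from the KO libraries, Grb10 was still called (1.40, adjusted p = 0.0169) and Ddc was at 0.79. Commd1 moved from 0.67 to 0.17 in the same step, and Zrsr1, the retrogene within its intron, moved from -0.52 to -1.01 and was then called (adjusted p = 0.0473).

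Sfmbt2 (ENSMUSG00000061186, chromosome 2, 10375321 to 10600064), a paternally expressed Polycomb-related gene needed in trophoblast, had 169 and 97 reads in WT and 426 and 397 reads in KO libraries. It rose from 8.31 ± 3.90 to 25.2 ± 3.16 CPM (log2 fold change 1.60, SE 0.36, adjusted p = 0.019). The summed trophoblast markers, mostly Tfap2c, Krt8 and Krt18, were higher in the same 2 libraries, as given above, while Eomes was not. Their part in the rise was not tested. The call was lost without KO1 (1.46, adjusted p = 0.100) and without KO2 (1.72, adjusted p = 0.0519).

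The remaining 3 down-regulated genes were single loci or small pairs. Zdbf2 (ENSMUSG00000027520, chromosome 1, 63312424 to 63353735), a paternally expressed zinc finger gene, had 2682 and 1057 reads in WT and 545 and 471 reads in KO libraries, with a log2 fold change of -1.92 (SE 0.45, adjusted p = 0.022). The WT libraries differed more from each other than the KO libraries did: the log2 fold change was -0.99 without WT1 and -2.50 without WT2, and the call was lost without KO2 (-1.75, adjusted p = 0.0739). Adam23, its neighbour, fell from 2206 and 2222 reads to 661 and 610 reads (log2 fold change -1.80, adjusted p = 0.00179). Impact (ENSMUSG00000024423), an inhibitor of the amino acid sensor kinase Gcn2, had 4226 and 2536 reads in WT and 1564 and 1886 reads in KO libraries (log2 fold change -1.01, SE 0.29, adjusted p = 0.0458). Impact was the least stable call: it was -0.50 without WT1, -0.96 without KO1 (adjusted p = 0.166) and -1.07 without KO2 (adjusted p = 0.148). Blcap (ENSMUSG00000067787, chromosome 2), which carries Nnat in an intron, had 676 and 776 reads in WT and 396 and 445 reads in KO libraries (log2 fold change -0.79, SE 0.19, adjusted p = 0.0254). Blcap was at -0.80 both without KO1 (adjusted p = 0.232) and without KO2 (adjusted p = 0.224), and Nnat, which is paternally expressed, had 176 and 331 reads in WT and 329 and 414 in KO libraries (log2 fold change 0.56, adjusted p = 0.204).

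Promoters of 3 called genes are shown because they hold the hexamer TGCCGC or its reverse complement GCGGCA, the core of the motif that ZFP57 binds when methylated. RefSeq (GRCm38.p6) gave start sites for 40 of the 51 genes, with 57 windows of the 250 bases before a start, searched on both strands. The hexamer was in 9 of these windows (15.8%), in 8.68% of all 32851 windows of the same length and, among windows with at least 10 CpG, in 9 of 35 of the imprinted genes (25.7%) and in 18.3% of all. It was in 5 of 17 windows of genes with a promoter in a germline DMR (29.4%), in 4 of 40 windows of the other genes (10%) and in 3 of 19 windows of called genes (15.8%). Windows can overlap, as those of Mest do, so they are not independent. Counted by gene, the hexamer was in 4 of 12, 4 of 28 and 3 of 12 genes of these groups. A match describes letters in a window and is no evidence of binding. The 250 bases before the start of Meg3 (chr12:109540746-109540995, plus strand), of the upstream start of Zdbf2 (chr1:63200108-63200357, plus strand) and of Zim1 (chr7:6696433-6696682, minus strand) follow, 5′ to 3′ on the strand of the gene, with each hexamer in capitals.
Meg3: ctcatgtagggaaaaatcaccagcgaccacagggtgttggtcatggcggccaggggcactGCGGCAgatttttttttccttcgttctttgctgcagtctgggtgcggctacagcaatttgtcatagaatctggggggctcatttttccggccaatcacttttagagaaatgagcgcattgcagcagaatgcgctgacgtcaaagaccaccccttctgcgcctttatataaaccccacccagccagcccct
Zdbf2: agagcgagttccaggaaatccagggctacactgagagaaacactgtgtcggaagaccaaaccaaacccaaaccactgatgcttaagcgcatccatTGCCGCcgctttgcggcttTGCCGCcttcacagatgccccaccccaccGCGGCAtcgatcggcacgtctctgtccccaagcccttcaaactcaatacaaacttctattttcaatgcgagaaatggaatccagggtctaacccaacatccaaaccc
Zim1: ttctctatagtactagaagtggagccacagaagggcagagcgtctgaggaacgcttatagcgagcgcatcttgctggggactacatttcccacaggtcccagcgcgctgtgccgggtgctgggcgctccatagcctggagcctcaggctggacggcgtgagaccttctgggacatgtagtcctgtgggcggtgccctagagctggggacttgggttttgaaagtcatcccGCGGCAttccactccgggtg
The window of Zdbf2 held 3 copies, starting at -155, -136 and -107 from the start site, and those of Meg3 and Zim1 held 1 each, at -190 and -20.

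The other imprinted genes did not pass both thresholds. Peg10, a retrotransposon-derived gene of the placenta, had 1395 and 1528 reads in WT and 2746 and 1984 in KO libraries (log2 fold change 0.70, adjusted p = 0.066), while Sgce, which starts beside it, overlapped between the groups (-0.19). Mest, a hydrolase gene, overlapped between the groups (0.10), Copg2 was lower in both KO libraries (-0.45, adjusted p = 0.122), and Klf14 had between 8 and 30 reads; Mest and Copg2 share 23.1% and 17.8% of their exon bases on opposite strands. Gnas, the stimulatory G protein gene, was lower in both KO libraries (503 and 365 reads in WT, 235 and 280 in KO libraries, log2 fold change -0.78, adjusted p = 0.0819), and part of its exons overlaps genes of the other strand. Nespas, its antisense RNA, was not listed by that name; its Ensembl identifier was listed as Gnasas1, with 101 and 46 reads in WT and 89 and 73 in KO libraries. H13, a signal peptide peptidase, was at -0.64 on the log2 scale (adjusted p = 0.0838) and Mcts2, the retrogene in its intron, one of -0.08 (adjusted p = 0.843). Inpp5f was lower in both KO libraries (-0.66, adjusted p = 0.0666), as were Peg13 (-1.24, adjusted p = 0.0986), Trappc9 (-0.42, adjusted p = 0.185) and Nap1l5 (-0.99, adjusted p = 0.243, on 9 to 27 reads). Plagl1, a zinc finger transcription factor of an imprinted gene network, had 223 and 258 reads in WT and 199 and 287 in KO libraries, and Rasgrf1 had 7 and 44 in WT and 10 and 34 in KO libraries.

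Neighbours expressed from opposite alleles were compared within each library by the ratio of their FPKM values, which are per gene length. Of 12 such pairs listed by both symbols, 10 had values above 0 in every library; a further pair, with Nespas read as Gnasas1, is given apart. In the 10 pairs the ratio of the paternal to the maternal gene was higher in both KO libraries in 5 pairs, lower in 4 and overlapping in 1. Among single genes the groups did not overlap in 65.7% of all genes tested, and no such share was computed for ratios of other genes. With 6 arrangements of 2 libraries against 2, a two-sided exact permutation test cannot go below 0.333, so these are values without a test. Dlk1 over Meg3 showed the widest gap, with ratios of 0.0108 and 0.0214 in WT1 and WT2 and 0.0921 and 0.136 in KO1 and KO2. Nnat over Blcap went from 0.433 and 0.710 to 1.38 and 1.55, with Blcap the higher gene in WT libraries and Nnat in KO libraries. Mcts2 over H13 went from 5.15 and 5.49 to 7.73 and 8.04, and Snrpn over Ube3a from 4.95 and 8.79 to 15.6 and 10.9. These pairs were named for their higher ratio in the KO libraries, so their lean towards the gene annotated as paternally expressed is no separate result. Blcap, H13 and Ube3a are annotated as imprinted only in some tissues, and no allele was measured.

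In 4 pairs the ratio was lower in the KO libraries. Peg3 over Zim1 went from 29.0 and 22.4 to 9.90 and 8.15, and Peg13 over Trappc9 from 0.0965 and 0.103 to 0.0581 and 0.0540. Zrsr1 over Commd1 was 3.07 and 0.991 in WT and 0.741 and 0.795 in KO libraries, with WT1 apart from the rest, and Ddc over Grb10 was 1.11 and 1.00 in WT and 0.995 and 0.461 in KO libraries, a gap set by KO2. Among the remaining pairs, Mest over Copg2 was 1.22 and 0.523 in WT and 1.22 and 1.23 in KO libraries, so WT2 alone stood apart. Kcnq1ot1 over Cdkn1c overlapped between the groups. The pairs Igf2 over H19 and Airn over Igf2r had a WT library at 0; their other WT ratio was 0.00124 and 0.000621, and their KO ratios were 0.349 and 0.118 for Igf2 over H19 and 0.00178 and 0.00588 for Airn over Igf2r. The ratio of Gnasas1 to Gnas was 0.726 and 0.456 in WT and 1.37 and 0.943 in KO libraries.

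**Figure D5:**
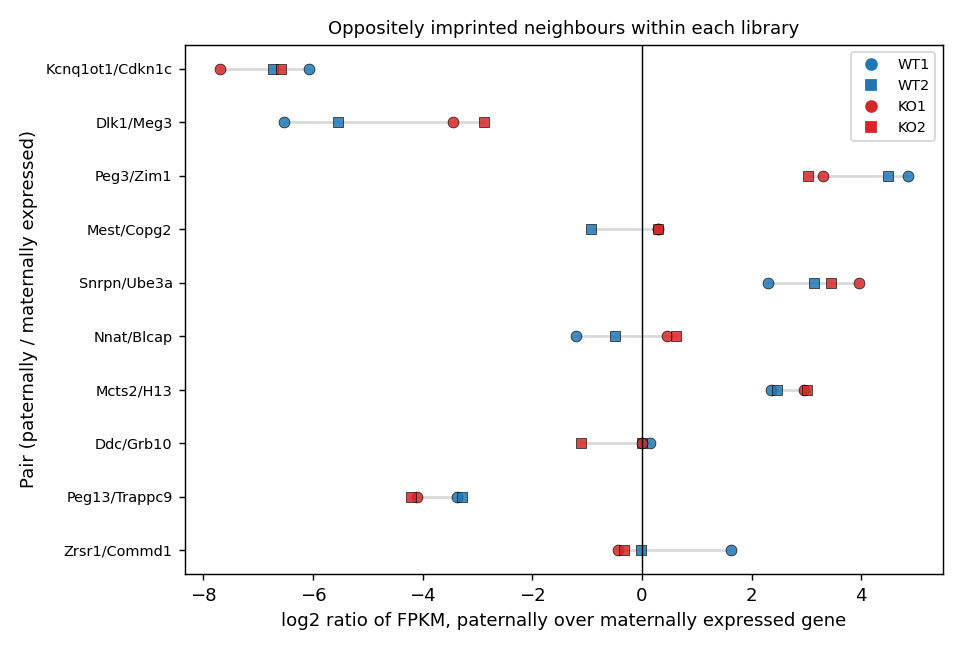
Log2 ratio of FPKM of the paternally over the maternally expressed gene in each library, for the 10 pairs with values above 0 in all 4 libraries. KO points lie to the right of the WT points for Dlk1/Meg3, Snrpn/Ube3a, Nnat/Blcap and Mcts2/H13 and to the left for Peg3/Zim1 and Peg13/Trappc9, while for Mest/Copg2 and Ddc/Grb10 WT and KO points nearly touch.

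By FPKM, Cd81 had the highest level of the imprinted genes in both groups (mean 99.9 in WT and 58.5 in KO libraries). Meg3 followed in WT cells with 64.7 and 53.4 and ranked 10 in KO cells with 16.7 and 16.3. Igf2r (51.0 and 30.8) and Impact (53.6 and 28.1) came next in WT cells and overlapped each other. In KO cells Phlda2 (53.1 and 39.2) and Snrpn (52.0 and 36.1) came after Cd81, and these 2 genes also overlapped each other.

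Of 25 genes listed for the control of imprints, which include the Tet enzymes, 2 rose and 2 fell (16% called, beside 21.7% of all genes tested). Their median log2 fold change was 0.05. The maintenance factors Dnmt1 (0.11, adjusted p = 0.703), Uhrf1 (0.20, adjusted p = 0.438), Zfp57 (-0.11, adjusted p = 0.770) and Trim28 (0.13, adjusted p = 0.659), named here although they were not called, lay between -0.11 and 0.20 on the log2 scale. Zfp445 was lower, with 4298 and 2527 reads in WT and 1780 and 2219 in KO libraries without overlap (-0.81, adjusted p = 0.0901). Dppa3, which protects oocyte methylation from removal in the zygote, rose from 19 and 12 reads in WT to 528 and 405 reads in KO libraries (log2 fold change 4.90, adjusted p = 0.000704). Dnmt3a, a de novo methyltransferase, rose from 1125 and 984 to 2728 and 3785 reads (1.60, adjusted p = 0.00394). Tet2, a methylcytosine dioxygenase, fell from 5151 and 2993 to 1423 and 1516 reads (-1.51, adjusted p = 0.0144). Zfp42, also called Rex1 and already counted above as an ES cell marker, fell from 14426 and 12181 to 2084 and 2234 reads (-2.64, adjusted p = 0.000704). Methylation was not measured in these libraries.

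Other genes of the same chromosomal neighbourhoods were read from a list of 38, of which 24 were tested. Of these 24, 1 was up-regulated (Atp10a) and 6 were down-regulated (25.0%), with a median log2 fold change of -0.54. Over all genes tested 10.7% were down-regulated and the median was 0.0015. In the imprinted genes these values were 25.5% and -0.29. The list was drawn from imprinted clusters without regard to imprinting, so it is no set of non-imprinted genes. Whether the lean downward is particular to imprinted genes was not tested. Besides Tspan32, Trpm5, Begain and Adam23, the down-regulated genes were Pon2 near Peg10 (log2 fold change -1.71) and Cobl near Grb10 (-1.43), both named after their values were seen. Cobl fell from 6554 and 6131 to 2051 and 2711 reads beside Grb10, which rose.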

How the data were processed

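RNA-seq was analysed in 2 WT and 2 Npac KO libraries. The authors deposited raw read counts per gene and FPKM values made from them; the submitters' processing notes name HISAT2 2.0.5, featureCounts 1.5.0-p3 and mm10. Only 2 of 50 imprinted genes have the GENCODE vM21 (GRCm38) start and end in the deposited table, so its coordinates are printed as deposited, with the build not named, and are not mixed with the GRCm38.p6 coordinates of the RefSeq sequences. The strand setting is not given in the sources used here.

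Counts were fitted over 18157 genes in R 4.3.3 with edgeR 4.0.16 (TMM, filterByExpr, quasi-likelihood test, no replicate block), and alternatives used DESeq2 1.42.0 and limma 3.58.1. Standard errors are the log2 fold change over the root of F. A level at 3 reads or fewer was treated as a floor for counting error only. Log2 CPM correlated at 0.967 between WT and 0.983 between KO libraries, and at 0.892 to 0.911 between groups. The test was checked on simulated counts.

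The genes named are all called members, both genes of each pair, the other members of a cluster with a called member, and called genes of the lists (at most 4 by absolute log2 fold change); exceptions are marked. Members and lists were chosen with earlier results of these data known.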

Additional observations from a re-analysis of the deposited data

How the results depend on the processing

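Of the 16 calls, 14 held under all of the 8 alternative settings with every library that tested them. Kcnq1, with 6 reads in KO1, was not tested where 10 reads were required in every library, nor were Klf14, Magel2, Nap1l5 and Rasgrf1. All 16 kept their direction, which the lack of overlap between the groups largely fixed in advance. Zdbf2 (-1.43) and Impact (-0.91) missed the threshold with FPKM and limma-trend, as did Impact (-0.90) with chromosome medians removed. Of the 31 genes not called, 12 were called under at least 1 of these settings and a further 9 only with a library left out. The number of up-regulated imprinted genes was 11 without a filter on low counts and 7 with DESeq2. Leaving out a library gave 1 to 13 up-regulated and 4 to 17 down-regulated imprinted genes, 642 to 3477 up-regulated and 606 to 3311 down-regulated genes in all, and medians of -0.20 to 0.16 for paternal and -0.70 to -0.39 for maternal genes. Genes not called with all libraries that passed with 1 left out were Phlda2 (1.18), Slc22a18 (-0.72), Dio3 (-1.16), Peg3 (1.05), Peg10 (0.71), Mest (0.61), Copg2 (-0.62), Ube3a (0.69), Mkrn3 (-0.79), H13 (-0.68), Ddc (1.81) and Inpp5f (-0.68) without WT1. Without WT2 they were Cdkn1c (0.73), Ascl2 (1.08), Dlk1 (1.43), Peg10 (0.67), Ndn (1.49), Magel2 (1.99), Nnat (0.97), Gnas (-1.07), H13 (-0.63), Ddc (0.88), Inpp5f (-0.67), Commd1 (1.13) and Zrsr1 (-0.87), and without KO2 Ddc (1.64). A lone remaining library was assumed to vary like the other group.

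The replicate numbers are not stated to pair the libraries; deviations of same-numbered libraries correlated at 0.332 over 2 pairs. With the replicate block, 11 imprinted genes were up-regulated, and 3128 and 2994 genes in all were up- and down-regulated.

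The sign reversed for Plagl1 with DESeq2 size factors (-0.0061), DESeq2 (-0.0060), FPKM (-0.0077) and the replicate block (-0.0087), and for Rasgrf1 with chromosome medians removed (0.0047). With a library left out, the log2 fold change also took both signs in 10 genes, none of them called in the fit with all libraries. It ran from -1.05 to 0.19 for Kcnq1ot1, -0.11 to 0.73 for Cdkn1c, -0.72 to 0.14 for Slc22a18, -1.16 to 0.65 for Dio3, -0.38 to 0.0056 for Sgce, -0.29 to 0.61 for Mest, -0.29 to 0.69 for Ube3a, -0.20 to 0.16 for Plagl1, -0.35 to 0.14 for Mcts2 and -1.21 to 1.51 for Rasgrf1. The causes were not tested. Depth limits Igf2, Airn, Klf14, Magel2, Nap1l5, Rasgrf1 and the microRNA genes, which had few reads.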
